A study of Mus musculus with 4 samples.

Results

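The 5 genes described here encode the invariant chains with which a T cell precursor first signals through an antigen receptor: Ptcra, the pre-T cell receptor alpha chain, Cd3g, Cd3d and Cd3e, the gamma, delta and epsilon chains of CD3, and Cd247, the CD3 zeta chain. The genes were taken as a fixed list, and their members in the data were all accessible regions overlapping the mm10 span of a gene or the 20 kb on either side of it. This gave 29 of the 36224 regions of the whole series, of which 5 lay around Ptcra, 11 around the neighbouring Cd3g, Cd3d and Cd3e genes and 13 around Cd247. They came from 89 single peaks, 19 and 24 of them in EpCAM-positive replicates 1 and 2, against 22 and 24 in EpCAM-negative replicates 1 and 2. The flanks of Cd3g, Cd3d and Cd3e overlap, so a region there was counted once.

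Open chromatin was mapped with ATAC-seq (a transposase cuts accessible DNA and tags its fragments) in wild-type mouse thymocytes at the DN3 stage. The EpCAM-positive group was the fraction of sorted DN3 cells that an antibody against the adhesion molecule EpCAM held on a magnetic column, and the EpCAM-negative group was the unlabelled remainder of the same sort. Each group had 2 libraries. The labels give no age or treatment for either group and leave unsaid whether different mice were used, so the p-values below measure only how far these libraries lie apart, which may be technical.

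At the DN3 stage a rearranged T cell receptor beta chain pairs with the pre-T alpha chain in place of the alpha chain, which is made later. The pair has almost no signalling tail of its own and is assembled with CD3 gamma-epsilon and delta-epsilon dimers and a zeta dimer, whose tyrosine motifs are phosphorylated by Lck and bind the kinases ZAP-70 and Syk. Signals from this pre-T cell receptor carry the cell through beta-selection. In mouse thymocytes Ptcra is known as a target of Notch signalling and of the E proteins E2A and HEB, which bind E-boxes, and it is shut off after the double-positive stage, whereas the CD3 genes stay active in mature T cells.

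The promoter sequences are given first because the only member region restricted to 1 fraction lay at one of them, that of Ptcra. RefSeq (GRCm38.p6) gave a window of 300 bases, from 250 before to 50 after the first transcribed base, for all 5 genes, and the window of Cnpy3 is added because its peak is the strongest near Ptcra. Capitals mark E-boxes, spelled CANNTG, which read the same on both strands.
Ptcra (chr17:46763663-46763962, minus strand): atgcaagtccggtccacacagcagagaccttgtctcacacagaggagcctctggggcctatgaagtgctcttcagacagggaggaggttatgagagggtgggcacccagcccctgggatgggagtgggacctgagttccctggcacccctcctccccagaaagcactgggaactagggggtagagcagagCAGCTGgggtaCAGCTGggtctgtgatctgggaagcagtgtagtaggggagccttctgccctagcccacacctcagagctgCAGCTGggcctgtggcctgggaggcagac
Cd3g (chr9:44980382-44980681, minus strand): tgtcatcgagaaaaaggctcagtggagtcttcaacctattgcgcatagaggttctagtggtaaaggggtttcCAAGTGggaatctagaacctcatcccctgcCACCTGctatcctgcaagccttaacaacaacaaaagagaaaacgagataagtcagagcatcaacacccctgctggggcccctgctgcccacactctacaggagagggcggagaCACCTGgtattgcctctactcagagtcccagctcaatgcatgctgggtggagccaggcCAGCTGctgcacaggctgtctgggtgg
Cd3d (chr9:44981536-44981835, plus strand): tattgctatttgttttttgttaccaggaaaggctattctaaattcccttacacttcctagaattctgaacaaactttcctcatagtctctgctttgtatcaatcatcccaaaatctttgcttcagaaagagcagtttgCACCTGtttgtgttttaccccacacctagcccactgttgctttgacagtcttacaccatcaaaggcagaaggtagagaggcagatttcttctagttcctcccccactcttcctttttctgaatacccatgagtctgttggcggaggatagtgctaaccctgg
Cd3e (chr9:45009562-45009861, minus strand): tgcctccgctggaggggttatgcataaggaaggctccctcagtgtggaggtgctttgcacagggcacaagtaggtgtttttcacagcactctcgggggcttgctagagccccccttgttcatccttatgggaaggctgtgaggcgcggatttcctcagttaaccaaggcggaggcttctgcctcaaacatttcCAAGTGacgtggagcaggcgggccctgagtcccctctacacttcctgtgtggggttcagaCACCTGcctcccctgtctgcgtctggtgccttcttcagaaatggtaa
Cd247 (chr1:165788431-165788730, plus strand): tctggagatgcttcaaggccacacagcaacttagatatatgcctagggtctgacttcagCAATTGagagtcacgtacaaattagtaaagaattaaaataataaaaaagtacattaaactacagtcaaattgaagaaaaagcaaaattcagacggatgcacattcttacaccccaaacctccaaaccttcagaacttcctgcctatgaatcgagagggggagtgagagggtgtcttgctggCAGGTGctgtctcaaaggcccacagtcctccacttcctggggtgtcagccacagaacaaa
Cnpy3 (chr17:46752165-46752464, minus strand): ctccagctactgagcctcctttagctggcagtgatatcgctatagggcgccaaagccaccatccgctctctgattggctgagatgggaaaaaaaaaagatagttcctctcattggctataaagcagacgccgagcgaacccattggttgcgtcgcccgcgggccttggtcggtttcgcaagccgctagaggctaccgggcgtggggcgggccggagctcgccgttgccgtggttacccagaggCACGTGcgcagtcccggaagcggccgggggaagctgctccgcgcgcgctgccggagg

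The Ptcra window held 3 E-boxes, and all 3 were CAGCTG. They began 60 and 49 bases before and 21 bases after the first transcribed base, which is counted as 0. At least 1 CAGCTG occurred in 16.3% of the 32851 promoter windows in the table and at least 3 in 0.207%. That count of 3 was looked up after the matches had been seen. The window also held TGGGAA, the core read by the Notch partner CSL (RBPJ), starting 84 and 32 bases before the first base. This motif was found in 25.6% of windows once or more and in 3.79% at least 2 times. The count of 2 was likewise not planned and matches the number seen in Ptcra. The later TGGGAA copy overlaps a GGAAG, the core of ETS sites, starting 30 bases before the first base. A match is a stretch of letters and not a measured binding site.

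All 5 member windows held at least 1 E-box, as did 72.3% of all windows. CAGGTG or its reverse CACCTG was found in Cd3g, at 2 places, and in Cd3d, Cd3e and Cd247 once each, but not in Ptcra, and in 20.2% of all windows. The Cd3d window held the TCF1/LEF1 core CTTTGA or its reverse 2 times, on opposite strands, and the Cd247 window once, against 16.0% of all windows. The letters AGATAA, which GATA3 can read, were found in Cd3g alone of the 5 and in 11.2% of all windows. The ETS core was found once in Ptcra, 2 times in Cd3d and in Cd247 and 3 times in Cd3e, and in 71.4% of all windows. The CSL core was also found once each in Cd3g and Cd3e.

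Other motifs were found in few of the 5 windows. AACNG, a core of MYB sites, was found 4 times in Cd3d and once in Cd3e, and in 80.3% of all windows. GGGCGG, the SP1 box, was found in Cd3g (35.7% of all windows), and TGACGT, part of a CREB site, in Cd3e (7.51%). The RUNX core TGTGGT was found in none of the 5 windows and in 16.8% of all windows. The same was true of the E-box form CAGATG, held by 17.2% of all windows, and of TATAAA, the TATA-box letters, held by 13.6%.

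All 5 member promoters held fewer CpG dinucleotides for their base composition than the median promoter. The ratio of observed to expected CpG was 0.0357 in Ptcra, 0.183 in Cd3g, 0.0774 in Cd3d, 0.333 in Cd3e and 0.21 in Cd247, all under the median of 0.384 over all windows. The Cnpy3 window had a ratio of 1.01, above that of 94.6% of all windows. In GC content the members were spread, with 61.7% in Ptcra and 42.3% in Cd3d around an overall median of 52.7%.

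**Figure D1:**
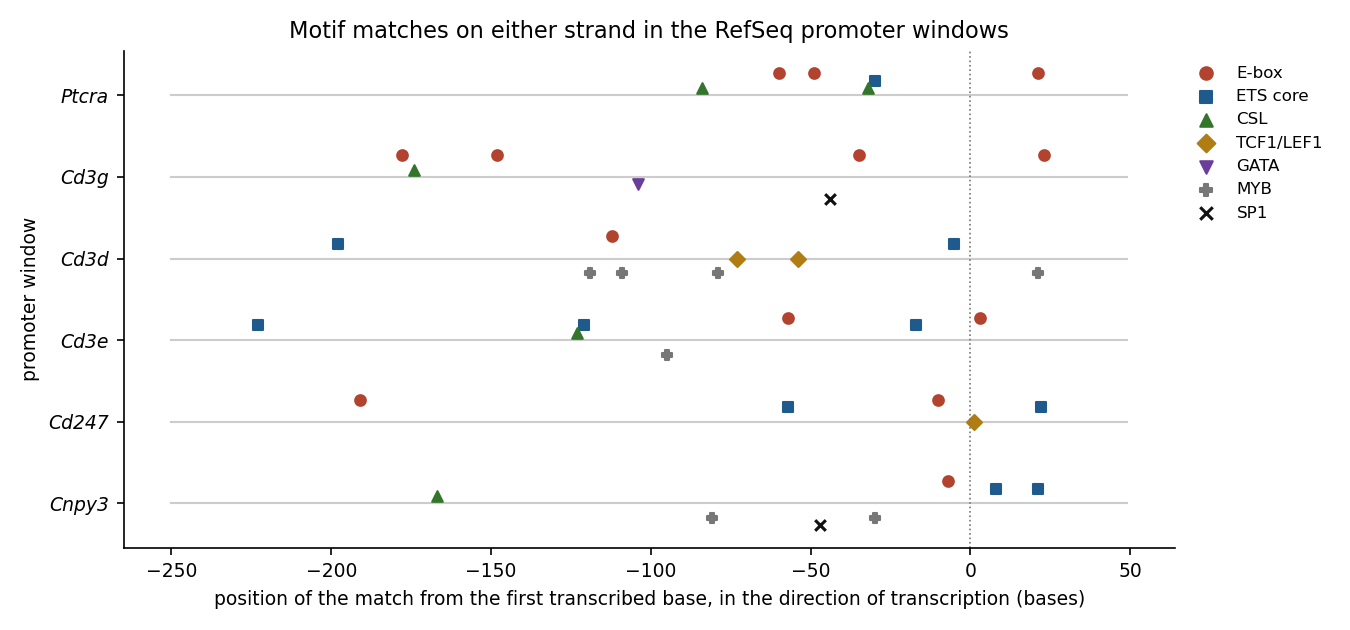
Positions of motif matches on either strand in the RefSeq promoter windows of the 5 genes and Cnpy3, with the position of the leftmost base of each match on the x axis, in bases from the first transcribed base, and 1 line per window; matches of the E-box, ETS, CSL, TCF1/LEF1, GATA, MYB and SP1 letters are drawn. The 3 E-boxes of Ptcra lie at -60, -49 and 21, and the 2 CSL matches at -84 and -32.

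Values below are summit pileups, the number of overlapping fragments (or reads) at the highest point of a peak, called fragments here and solved from the fold and p-value that the authors' peak caller listed. The EpCAM-positive lists held 26029 and 29030 peaks and the EpCAM-negative lists 24598 and 25924, and no read totals were used. The lowest common background, a relative measure of depth, averaged 1.34 times that of the EpCAM-negative libraries in the EpCAM-positive ones. The lowest listed −log10 p was 4.38 and 4.33 for EpCAM-positive cells, against 3.62 and 3.65 for EpCAM-negative cells. For −log10 q these values were 2.07 and 2.02, against 1.32 and 1.34. The EpCAM-positive lists thus ended at a stricter value. Counts and shares of regions called in 1 fraction alone, below, compare lists with unlike ends. The DN3 label was looked at through promoters. Of 10 DN3 marker genes, 5 (Il2ra, Notch1, Cd3e, Cd3g and Bcl11b) had a region called in all 4 libraries over a promoter window. Rag2 had one called in fewer, Rag1, Tcf7 and Dntt had none, and Ptcra is described below. None of the B cell (3 genes with a window), myeloid and dendritic (3), erythroid (4), NK (3) and double-positive (1) markers had a region there. Of 5 thymic epithelial markers, 1, Aire, had one in all 4 libraries. Over all protein-coding genes with a window, 43.1% had a region called in all 4 libraries and 49.5% had none. The DN3 count is near that 43.1% and the other lists are short, so these counts do little to check the label. Regions within 20 kb did not set the DN3 list apart. There 48.5% were called in all 4 libraries, against 36.8% (B cell) to 71.4% (erythroid) in the other lists. Cd3e, Cd3g and Ptcra are also members here, so they are no independent check.

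Of the 29 regions, 16 (55.2%) were called in all 4 libraries, where 46.3% of all regions were. A single region, over the start of Ptcra, was called in both EpCAM-negative libraries and neither EpCAM-positive one, a pattern held by 1.72% of all regions. The converse pattern was held by 0 of the 29 regions and by 4.4% of all regions. A further 10 regions (34.5%) were called in 1 library only, with 7 to 22 fragments, where 29.8% of all regions were. One region was called in 3 libraries and one in replicate 2 of each fraction. By place, 5 regions overlapped a member's promoter window, 5 the promoter window of another gene, 11 lay elsewhere within a member gene and 8 lay outside these places.

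**Figure D2:**
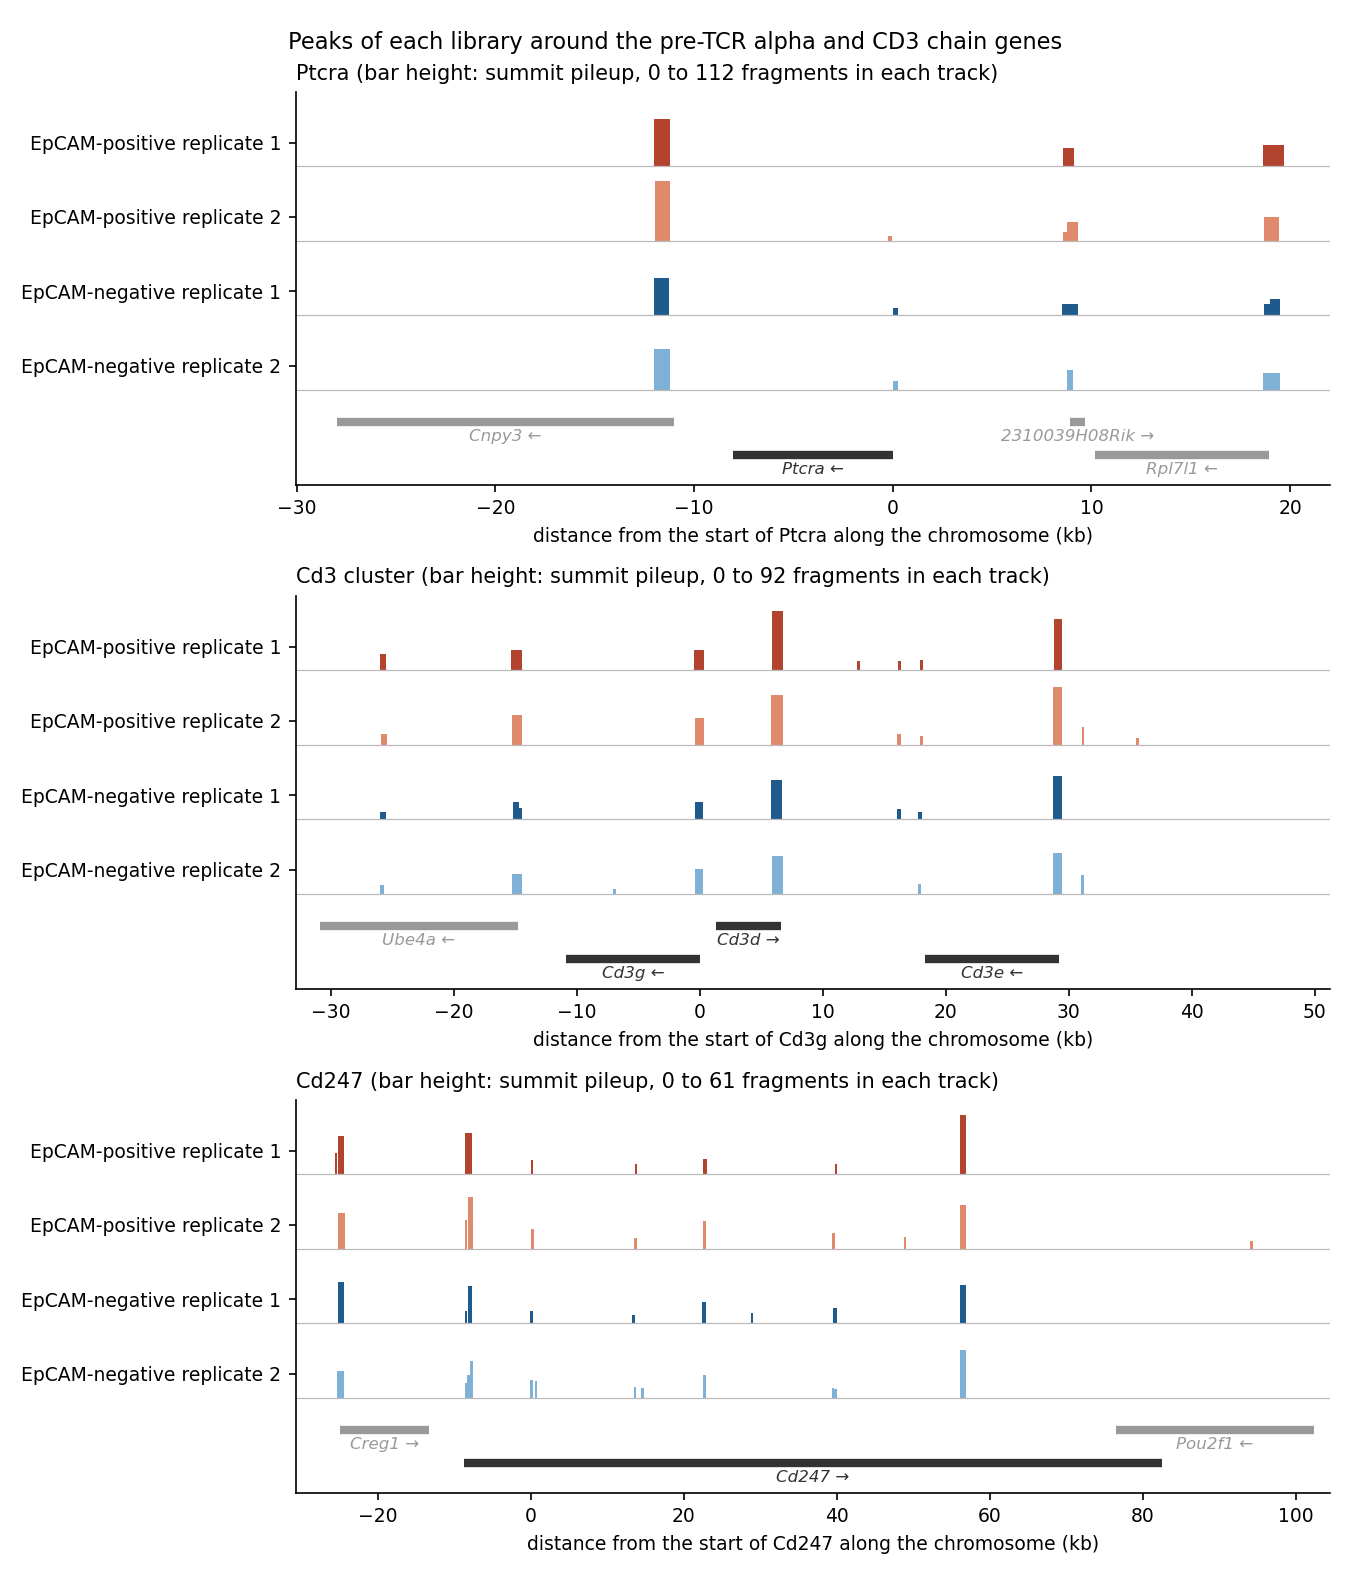
Peaks of each library around Ptcra, the Cd3 cluster and Cd247, with distance along the chromosome from the start of Ptcra, Cd3g or Cd247 on the x axis (kb) and 1 track per library; bar height is the summit pileup in fragments, and gene spans are drawn below with the direction of transcription (member genes in black). The 4 tracks share their tall bars, while at the start of Ptcra the EpCAM-negative tracks have bars of 14 and 16 fragments and EpCAM-positive replicate 2 has one of 9 just inside the gene.

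Ptcra (gene ID 19208, chr17:46755663-46763712, minus strand) is the ligand-independent partner of the beta chain and is made mainly in immature T cells. Directly upstream of the gene and reaching its first base, the region chr17:46763711-46764002 had no listed peak in either EpCAM-positive library, against 14 and 16 fragments in the EpCAM-negative libraries. Both EpCAM-negative peaks stood near the middle of their lists, where 55.7% and 47.9% of peaks ranked at or above them by −log10 q. The stronger summit lay 96 bp before the first base, and the summits of these peaks were 110 bp apart. In bulk chromatin, fewer cells with the site open and a lower opening per cell cannot be told apart.

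An EpCAM-positive peak nonetheless lay close by. EpCAM-positive replicate 2 had a peak of 9 fragments at chr17:46763471-46763684, just inside the gene, 26 bases from the EpCAM-negative-only region and touching the same promoter window. It was among the weaker peaks of its list, since 92.1% ranked at or above it. When peaks within 500 bp were merged, the joined region counted as called in 3 libraries and the EpCAM-negative-only call ended.

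A peak would have been listed at this place in the EpCAM-positive libraries from a pileup of about 7 or 8 fragments. The first value takes the local background of 1.05 fragments per base of the neighbouring EpCAM-positive replicate 2 peak, and the second takes the EpCAM-negative background scaled to 1.41, both with the lowest −log10 p of those lists. The scaling used the background ratio of 1.34, whereas the unscaled local background was 1.01 and 1.1 in the EpCAM-negative libraries, near that 1.05. The EpCAM-negative mean of 15 fragments comes from peaks chosen because they were called. It therefore gives no expected value for the EpCAM-positive libraries. Whether depth accounts for the missing call was not tested. The lists give no pileup below their thresholds, so the EpCAM-positive values at the site are known only as not listed, and the caller's demands on peak width are not in this limit. An exact two-sided permutation test of 2 libraries against 2 cannot go below p = 0.33, so none was run for this call.

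Among promoters the EpCAM-negative-only pattern was rare. Of 17492 protein-coding genes with a promoter window, 21 (0.12%) had a window touched by an EpCAM-negative-only region and by no region called in all 4 libraries or in the EpCAM-positive pair, and 169 (0.966%) had the converse. A region called in all 4 libraries touched the window of 7536 genes (43.1%). Ptcra was the only one of the 21 whose window was also touched by an EpCAM-positive peak.

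The other regions around Ptcra sat on the starts of neighbouring genes. The peak called in all 4 lists about 4 kb away, chr17:46751687-46752507, overlapped the promoter window of Cnpy3, which encodes a chaperone of Toll-like receptors. This peak lay downstream of Ptcra, with its strongest summit 3409 bp past the 3′ end of that gene. The Cnpy3 peak had 89 and 112 fragments in EpCAM-positive cells, against 70 and 76 in EpCAM-negative cells. It was the strongest of the 29 regions in each library but EpCAM-positive replicate 1, where the region near the 3′ end of Cd3d had 92. The EpCAM-positive pileups were the higher ones before scaling for depth. After scaling the fractions overlapped, with a log2 difference of 0.15 ± 0.18 (SE; limma adjusted p = 0.775, 95% interval -0.21 to 0.51). Upstream of Ptcra, the region over the start of 2310039H08Rik had 35 and 36 fragments in EpCAM-positive cells, against 22 and 37 in EpCAM-negative cells. The region over the start of Rpl7l1, a ribosomal protein-like gene, had 41 and 44 against 31 and 32.

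No list held a peak in the body of Ptcra beyond the one at its start, nor in the 8249 bases between the EpCAM-negative-only region and the region over 2310039H08Rik. In mouse thymocytes an enhancer has been described upstream of the Ptcra start, and its coordinates were not used here. The Cnpy3, 2310039H08Rik and Rpl7l1 regions make up the 3 regions called in all 4 libraries within 20 kb of Ptcra, so none of those overlapped Ptcra itself.

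**Figure D3:**
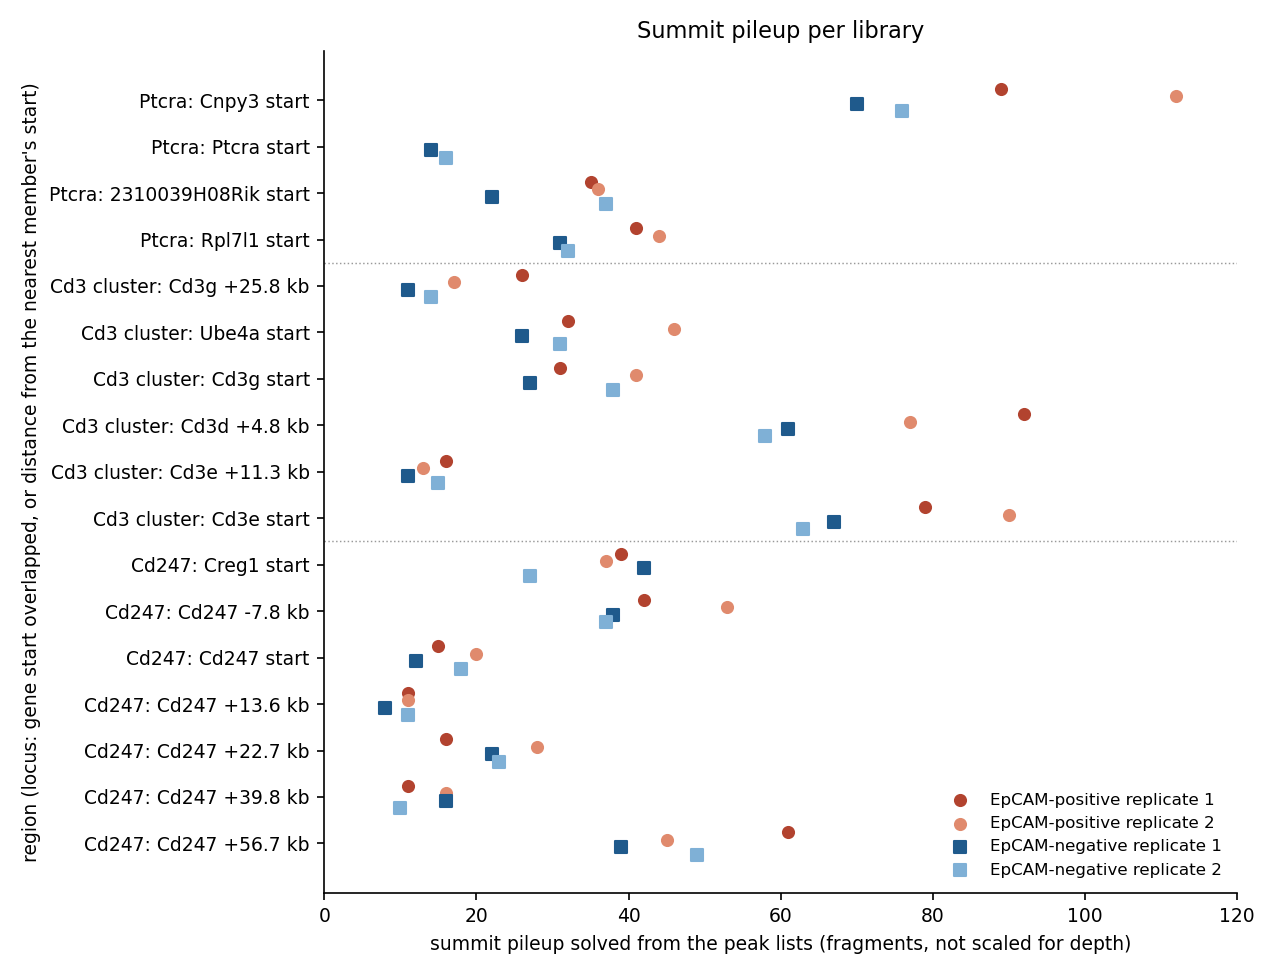
Summit pileup in fragments (x axis, not scaled for depth) of the 16 regions called in all 4 libraries and of the EpCAM-negative-only region at the Ptcra start, 1 region per line, with EpCAM-positive libraries as circles and EpCAM-negative libraries as squares. This region has squares at 14 and 16 and no circle, whereas the regions near the Cnpy3 start, the 3′ end of Cd3d and the Cd3e start reach 58 or more in every library.

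The Cd3g, Cd3d and Cd3e genes share 40092 bases of chromosome 9. None of the 11 regions there was EpCAM-positive-only or EpCAM-negative-only, patterns held by just 4.4% and 1.72% of all regions. Cd3e (gene ID 12501, chr9:44998735-45009663, minus strand) encodes the chain that pairs with both gamma and delta. Its start was covered by chr9:45009160-45009912, with 79 and 90 fragments in EpCAM-positive cells, against 67 and 63 in EpCAM-negative cells. All 4 peaks were in the upper part of their lists, with 7.65% to 13.5% of peaks ranked at or above them. After scaling for depth, the values of the fractions overlapped, with a log2 difference (EpCAM-positive minus EpCAM-negative) of 0.07 ± 0.18 (SE; limma adjusted p = 0.906).

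Cd3d (gene ID 12500, chr9:44981769-44987052, plus strand), the delta chain, showed no peak at its start in any list. The nearest region ended 768 bases before its promoter window. Its strong region lay instead at the other end of the gene, chr9:44986215-44987186, across the 3′ end of the span. This region had 92 and 77 fragments in EpCAM-positive cells, against 61 and 58 in EpCAM-negative cells, and its summits lay within 46 bp of each other. The scaled values did not overlap between the fractions, and the log2 difference was 0.20 ± 0.19 (limma adjusted p = 0.704). An enhancer downstream of the gene is known for human CD3D. Whether this region corresponds to it was not tested.

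Cd3g (gene ID 12502, chr9:44969572-44980431, minus strand), the gamma chain, is transcribed away from Cd3d, and their starts are 1355 bases apart. Its start was covered by chr9:44979990-44980767, with 31 and 41 fragments in EpCAM-positive cells, against 27 and 38 in EpCAM-negative cells. The 4 summits lay within 21 bp of each other, 95 bp before the first base at the strongest one. Replicate 2 was higher than replicate 1 in both fractions, and the fractions overlapped (log2 difference -0.15 ± 0.25, limma adjusted p = 0.854).

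Weaker sites of the cluster lay between and beyond the genes. The region just past the 3′ end of Cd3e, chr9:44998149-44998585, had 16 and 13 fragments in EpCAM-positive cells, against 11 and 15 in EpCAM-negative cells. Between Cd3d and Cd3e, chr9:44996460-44996789 had 15 and 16 fragments in EpCAM-positive cells, against 15 in replicate 1 and no listed peak in replicate 2 of the EpCAM-negative cells. A site upstream of Cd3e, chr9:45011465-45011689, was listed only in the replicate 2 libraries, with 27 fragments in EpCAM-positive and 28 in EpCAM-negative cells. Its folds over local background were only 3.56 and 4.40.

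At the edge of the cluster, 2 regions lay in Ube4a, which encodes a ubiquitin ligase. The one over its start, chr9:44965097-44966005, had 32 and 46 fragments in EpCAM-positive cells, against 26 and 31 in EpCAM-negative cells. The one within it, chr9:44954433-44954996, had 26 and 17 against 11 and 14, the largest positive log2 difference of the 16 regions at 0.46 ± 0.32 (limma adjusted p = 0.577). Its EpCAM-negative replicate 1 peak is the only one of the 89 member peaks for which a second whole-number pileup also met the tolerance.

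Cd247 (gene ID 12503, chr1:165779952-165871153, plus strand), the zeta chain, carries most of the tyrosine motifs of the complex and had its regions spread along a long gene. Its promoter window begins inside the span, because the start used there lies 8729 bases after the first base of the span. The region over that start, chr1:165788619-165789044, was weak, with 15 and 20 fragments in EpCAM-positive cells, against 12 and 18 in EpCAM-negative cells. The region next to the first base of the span, chr1:165780053-165781075, was stronger, with 42 and 53 against 38 and 37.

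Within the gene, the site with the highest mean scaled pileup was far downstream of both starts, although in EpCAM-positive replicate 2 the region next to the first base of the span was stronger. The region chr1:165844781-165845599, 56.7 kb after the start of the promoter table and also inside the long non-coding gene Gm32999, had 61 and 45 fragments in EpCAM-positive cells, against 39 and 49 in EpCAM-negative cells. Each fraction had a higher and a lower library, and the groups overlapped. The regions 13.6, 22.7 and 39.8 kb after the start had 8 to 28 fragments in the 4 libraries. The one at 22.7 kb, chr1:165811120-165811654, had 16 and 28 fragments in EpCAM-positive cells, against 22 and 23 in EpCAM-negative cells, the most negative log2 difference of the 16 regions at -0.39 ± 0.30 (limma adjusted p = 0.616). Of the 13 regions around Cd247, 6 were called in 1 library only (46.2%, against 29.8% of all regions), 3 in EpCAM-positive and 3 in EpCAM-negative libraries. The remaining region called in all 4 libraries lay over the start of Creg1, a secreted glycoprotein gene, with 39 and 37 fragments in EpCAM-positive cells, against 42 and 27 in EpCAM-negative cells.

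Ordered by mean scaled pileup over the 4 libraries, the sites of the members themselves ran from the Cd3e start (73.8 fragments, higher than 88% of all regions called in 4 libraries) and the 3′ end of Cd3d (70.5) over the Cd247 sites at 56.7 kb (47.7) and at the span start (41.9) to the Cd3g start (33.7), the Cd247 site at 22.7 kb (21.7) and the Cd247 promoter (15.9). The ranges over libraries overlapped between the Cd3e start and the 3′ end of Cd3d, between the pair of Cd247 sites, between the Cd247 span start and the Cd3g start, and between the last 2 sites. The other neighbours in this order did not overlap. The scale is per summit and not per length, and further Cd247 and Cd3e sites were lower. The Ptcra start has no place in this order, because neither of the regions touching its promoter window was called in all 4 libraries.

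In a test of every region called in all 4 libraries, none of the 16 member regions passed the threshold for a difference between fractions. Log2 pileups were scaled by the median ratio over the 16759 such regions with a solved pileup in each library and compared with limma and Benjamini-Hochberg adjustment at 0.05. It called 0 of the 16 regions in either direction (smallest adjusted p 0.577), and at an unadjusted 0.05 the number was also 0. Of all regions, 35 (0.209%) were called higher and 54 (0.322%) lower in the EpCAM-positive libraries, and 13.3% had an unadjusted p under 0.05. The member differences ran from -0.39 to 0.46 with a median of -0.01, against a median of 0.01 over all regions. They were positive in 8 of 16 regions (50.6% over all regions). That number was 15 without scaling, where the median of all regions was 0.31, and 5 with scaling by background, where it was -0.11.

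The test leaves room for moderate differences. The 95% interval for the log2 difference was -0.30 to 0.45 at the Cd3e start, -0.18 to 0.58 at the 3′ end of Cd3d, -0.66 to 0.37 at the Cd3g start and -0.71 to 0.58 at the Cd247 promoter. Scaled values without overlap between the fractions were seen at 2 of the 16 regions, the 3′ end of Cd3d and the Rpl7l1 start, both higher in the EpCAM-positive libraries. Over all regions 21.7% had such values in this direction, and 21.7% in the other, where 0 of the 16 members did.

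**Figure D4:**
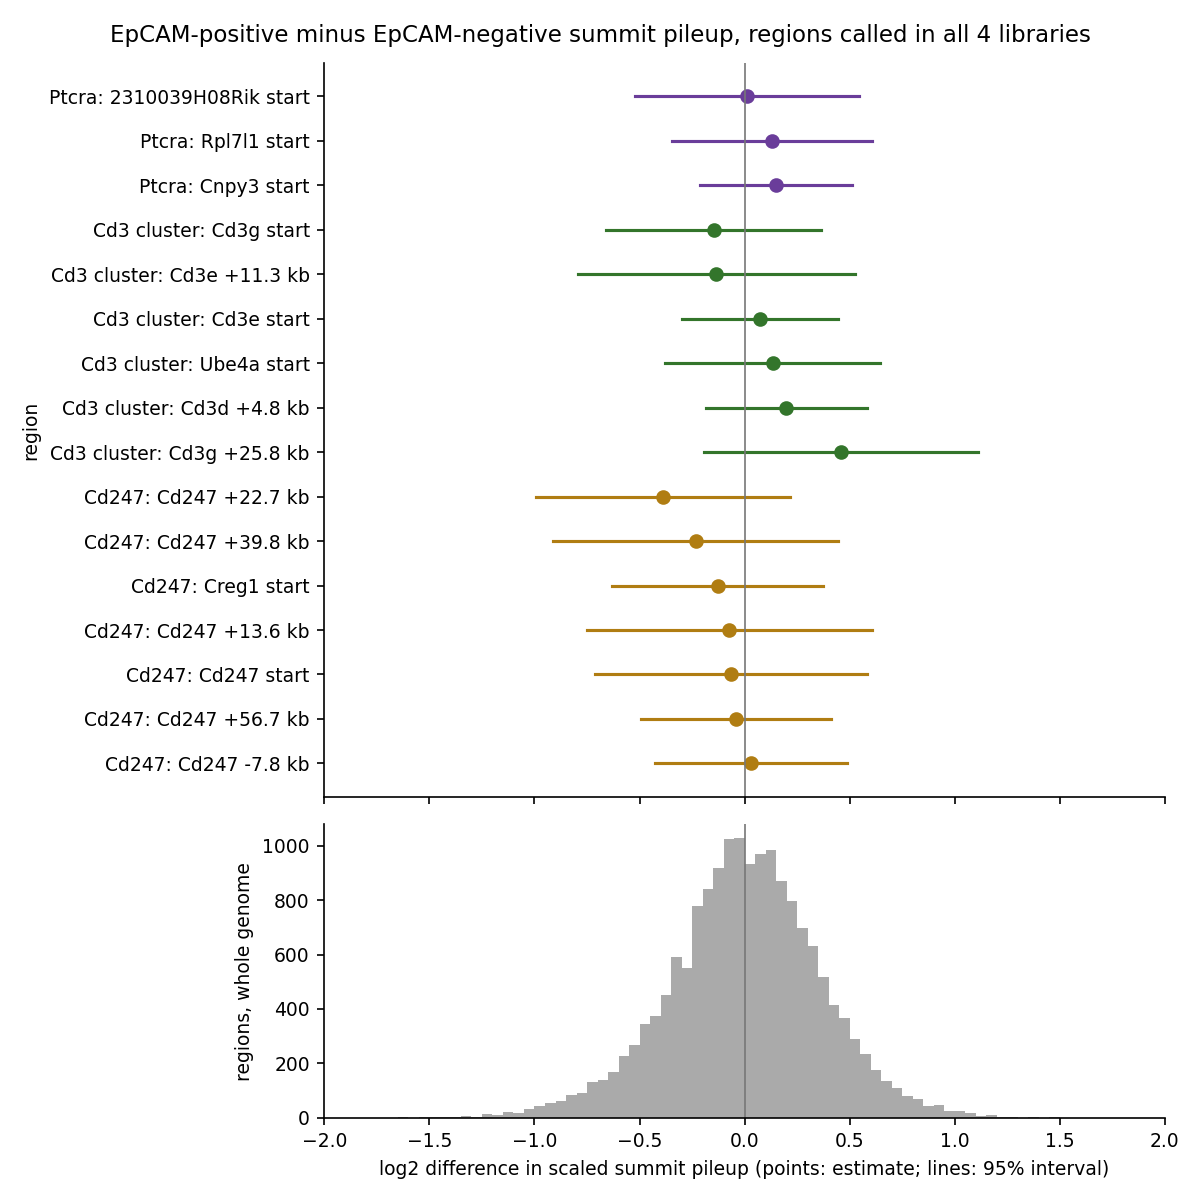
Upper panel: log2 difference in scaled summit pileup, EpCAM-positive minus EpCAM-negative (x axis), with its 95% interval for each of the 16 regions called in all 4 libraries near Ptcra, the Cd3 cluster and Cd247. Lower panel: number of regions of the whole genome at each difference; every member interval includes 0.

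By scaled pileup height in the 4 libraries, the region over the Cd3e start was most like regions at the ends of Pik3r1, AI467606 and Hmgb1. The mean absolute log2 differences were 0.0304, 0.0421 and 0.0456. The Cd247 site at 56.7 kb was most like those of Ppp3cb, Nxt1 and Zfr (0.0477 to 0.0608). The search covered 9031 genes, and likeness here is mostly likeness in height. Whether these genes share a pattern of opening was not tested. Ptcra had no region of its own called in all 4 libraries and was not compared.

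The genes that act with this receptor were set beside it through 5 lists with 54 genes, all found in the annotation. Around them 352 regions were counted, of which 171 (48.6%) were called in all 4 libraries, where 46.3% of all regions were. The fraction-restricted ones were 12 EpCAM-positive-only regions and 5 EpCAM-negative-only regions of the 352, patterns held by 4.4% and 1.72% of all regions. Their order turned round (7 and 9) when all lists were shortened to equal length. Among the 41 listed genes with a promoter window, 32 had a region called in all 4 libraries over it (43.1% of all protein-coding genes had one), 3 had one with another pattern, 6 had none, and 0 had an EpCAM-negative-only or EpCAM-positive-only promoter as their only call.

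Over all regions, 46.3% were called in all 4 libraries, 4.4% were EpCAM-positive-only and 1.72% were EpCAM-negative-only. The receptor chain partners, which are the constant segments of the T cell receptor genes and Fcer1g, a zeta-related chain, had 10 of 13 regions in all 4 libraries and none restricted to 1 fraction. The proximal kinases had 27 of 51 in all 4 libraries. Their 1 EpCAM-positive-only region lay in Fyn, a Src kinase, with 12 and 13 fragments. The adaptors and enzymes had 42 of 102 in all 4 libraries, and among the rest were EpCAM-positive-only regions in Lcp2, Grb2 and Fyb and EpCAM-negative-only regions 1074 bp outside Lcp2 and 9301 bp outside Skap1. The Skap1 one had 14 and 24 fragments, and the others named here 6 to 13.

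The brakes, a list of genes most of which restrain receptor signalling, had 36 of 84 regions in all 4 libraries, where 46.3% of all regions were. Another 4 of the 84 were EpCAM-positive-only and 0 were EpCAM-negative-only, patterns held by 4.4% and 1.72% of all regions. The 4 were in Sit1 and Ptprc (CD45) and within 20 kb of Cbl and Cd6, and the Sit1 region, with 39 fragments in each EpCAM-positive library, was the strongest of the 12 in the lists. The regulators, which are transcription factors known at Ptcra or CD3 genes, had 56 of 102 in all 4 libraries. Of the 102, 3 were EpCAM-positive-only and 3 EpCAM-negative-only, beside the same shares of 46.3%, 4.4% and 1.72% over all regions. The EpCAM-positive-only regions were in Tcf12 (HEB) and Runx1 and near Tcf3 (E2A), where the region covered the start of Uqcr11. The EpCAM-negative-only ones were in Tcf12 and Ikzf1 and 16742 bp from Ikzf1, with 8 to 13 fragments. Notch1 had a promoter region called in all 4 libraries and no region restricted to 1 fraction within 20 kb.

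**Figure D5:**
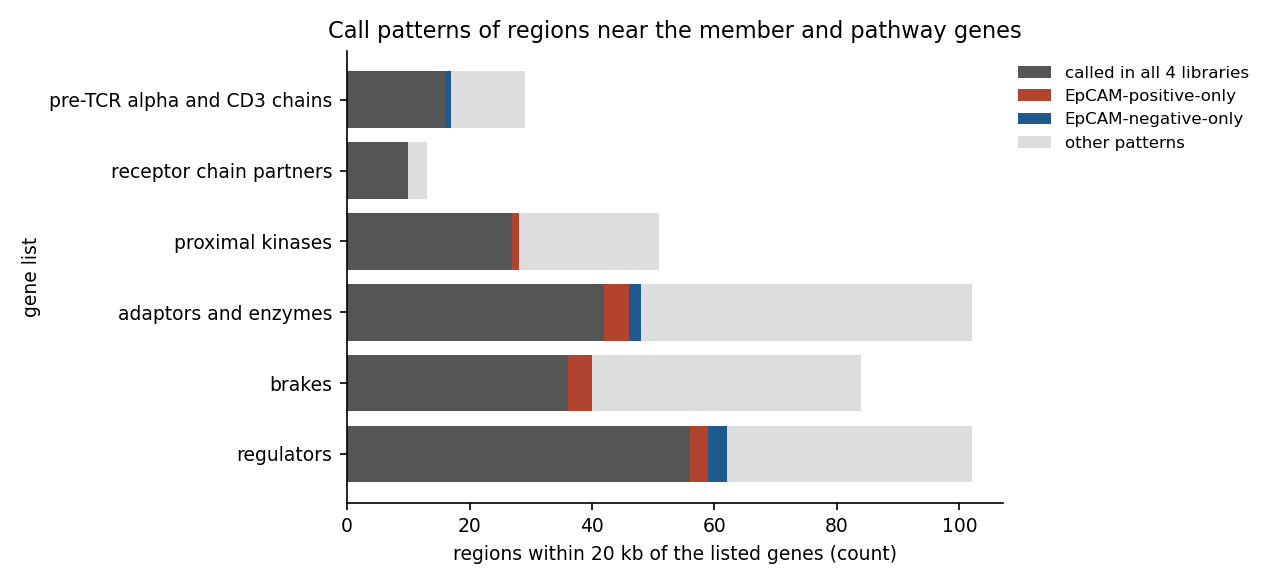
Number of regions within 20 kb of the listed genes (x axis) by call pattern, for the 5 member genes and for each of the 5 pathway lists (y axis). The members have 16 regions in all 4 libraries, 1 EpCAM-negative-only and 12 with other patterns.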

How the data were processed

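Per the labels' protocols, sorted DN3 thymocytes were separated magnetically by EpCAM and tagmented with a Vazyme TruePrep kit. Per the submitters' processing notes, the genome build was mm10 and the tools named, in no given order, include MACS3, Bowtie2, Trimmomatic, Trim Galore, FastQC, Picard, SAMtools, deepTools and bedtools. Not given in the sources used here: their versions, duplicate removal, a shift for the transposase and the caller's settings. The authors deposited 1 narrow peak list per library, so peaks were called without pooling. For each peak the authors deposited a score for display, its fold over the local background, −log10 p, −log10 q and the offset of its summit.

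Pileup and background were solved from the fold, (pileup + 1)/(background + 1), and the Poisson p, to within 0.01 on −log10 p. This gave a whole number for 99.9931% to 100.0% of peaks, and a second whole number also fitted for 1.89% to 4.12%. Fragments and reads cannot be told apart in these values. Peaks on chromosomes 1 to 19, X and Y that overlapped by 1 bp were merged into regions. A region restricted to a fraction (EpCAM-positive-only or EpCAM-negative-only) was listed in both of its libraries and in none of the other fraction. Gene spans and promoter windows came from RefSeq GRCm38.p6, the files' build; exons and untranslated regions were not annotated. limma 3.58.1 in R 4.3.3 (trended spread, tested on simulated data) compared regions called in all 4 libraries. The promoter windows were searched for 13 motifs on both strands. The named genes are the 5 members, list genes with a region restricted to 1 fraction, and the 3 genes most like each strongest site. One listed item is not reported here. Members, lists and tests were chosen with earlier results of these data known. Alternatives were another overlap, gap, list length, threshold, flank, scaling, trend, pseudocount, replicate block and leaving out each library.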

Additional observations from a re-analysis of the deposited data

How the results depend on the processing

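The EpCAM-negative-only count of 1, the Ptcra start, became 0 with peaks within 500 bp merged and kept its value with 50% overlap, lists of equal length, −log10 q of at least 5 and flanks of 10 or 50 kb. A fraction reduced to 1 library needs only that library's call. The members then had 0 to 4 EpCAM-positive-only regions (4 without EpCAM-positive replicate 1, 2 without EpCAM-positive replicate 2, 1 without EpCAM-negative replicate 1) and 1 to 4 EpCAM-negative-only regions (4 without EpCAM-negative replicate 1, 2 without EpCAM-negative replicate 2). Between 16 and 17 were called in every remaining library. In the pathway lists the EpCAM-positive-only count of 12 became 7 and the EpCAM-negative-only count of 5 became 9 with lists of equal length, so their order turned round. The EpCAM-positive-only count was 23 with flanks of 50 kb. Leaving out 1 library gave 18 to 40 EpCAM-positive-only and 7 to 29 EpCAM-negative-only regions. The cause was not tested.

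The members had 0 calls by limma in the alternative fits, but the fits without scaling and without a trend called 0 of all regions, so they say nothing about the members. With 1 library left out, the lone library of its fraction is assumed to vary like the other fraction's pair. The members' median log2 difference was 0.29 without scaling, against -0.01, and the scaling itself sets this shift. With the replicate block the members had 0 calls and a median of -0.01, while all regions had 321 called higher and 437 lower in the EpCAM-positive libraries, against 35 and 54. Same-numbered libraries deviated together with a correlation of 0.16 over 16759 regions, and the labels give no pairing beyond the number. Over all regions the calls in at least 1 direction also changed by more than 1.5 times under other settings. They were 18 higher and 188 lower with scaling by background, and 0 and 0 without scaling or without a trend. With −log10 q of at least 5 they were 18 and 33, and with a pseudocount of 5 they were 56 and 72. Leaving out any 1 library also changed them that far in at least 1 direction. Depth limits what a missing call says: a peak absent from a list has no measured pileup.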
